A study of Mus musculus with 40 samples.

Results

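Livers of wild-type mice fed a high-fat diet (HFD) with pioglitazone (Pio) were compared with livers of wild-type mice fed the HFD alone. The members were chosen by label: the 5 HFD-Pio mice (numbers 836 to 840) and the 5 HFD mice (826 to 830) of the WT count table, 10 of the 40 liver RNA-seq samples in the series. The whole study crossed genotype (WT or hepatocyte PPARγ knockout, KO), diet (control or HFD) and Pio (with or without), with 5 male mice in each of 8 groups. Pio was mixed into the food at 0.01% by weight, the HFD drew 60% of its energy from fat, and feeding lasted 3 months, from 2 to 5 months of age. All 10 mice were males of the C57BL6/J strain with an intact Pparg gene and no transgene. The KO mice used for comparison carried loxP-flanked Pparg alleles and a Cre driven by the albumin promoter, so their other liver cells kept the gene. WT mice were bought and were not littermates of the KO mice. The comparison asks which hepatic mRNAs Pio changed in mice that were already on a fat-rich diet.

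Pio is a thiazolidinedione drug that binds and activates PPARγ, a nuclear receptor that pairs with RXR on DNA and turns on genes for taking up and storing fat. PPARγ is abundant in adipocytes and scarce in lean liver, and it is known to rise in fatty liver. Its relative PPARα is the main PPAR of hepatocytes and drives fatty acid oxidation in mitochondria and peroxisomes, and both receptors can bind the same kind of DNA site.

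The HFD livers gave 16738056 to 22321083 counted reads and the HFD-Pio livers 15789401 to 49860981, with mouse 837 the deepest. The 10 hepatocyte markers examined were abundant in every liver, and 0 of them passed the test between the groups (1 passed by DESeq2, 2 by limma). HFD mouse 829 stood apart: its genes of high GC content were shifted up against those of low GC content by 0.78 on the log2 scale relative to the mean of the libraries, against -0.22 to 0.32 for its 4 group mates and -0.20 to 0.06 for the HFD-Pio mice. Across genes, the fold change of HFD-Pio against HFD moved with GC content, with a median of 0.17 in the 10% of genes with the lowest GC content and -0.17 in the 10% with the highest. Without mouse 829 these medians were 0.09 and -0.09. RNA came from bulk liver tissue, so fewer cells of a type and less RNA per cell cannot be told apart in any value below.

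Of 12447 genes tested, 104 rose with Pio on the HFD and 46 fell, at an adjusted p of at most 0.05 (quasi-likelihood F test of edgeR, Benjamini-Hochberg adjusted, 20 WT mice). The 150 genes were 1.21% of those tested, 0.836% for the rise and 0.37% for the fall. By DESeq2 598 genes passed (260 higher and 338 lower) and by limma with sample weights 638 (344 higher and 294 lower), so the share of higher genes was 69.3% in edgeR, 43.5% in DESeq2 and 53.9% in limma. The median log2 fold change of all tested genes was 0.0006. Increases ran from 0.42 to 6.85 and decreases from 0.49 to 2.41 on the log2 scale, and 57 of the higher genes and 22 of the lower genes changed at least 2-fold. Every HFD-Pio mouse lay above every HFD mouse for 86 of the 104 higher genes, and this order held for 3.71% of all tested genes. Every HFD-Pio mouse lay below every HFD mouse for 41 of the 46 lower genes, against 3.61% of all tested genes. The called genes were selected on these same mice, so this separation describes them and is not further support. Values below are CPM, the reads of a gene as parts of a common library total after TMM scaling, which corrects for differing library composition, and are given per mouse in the order 826 to 830 for HFD and 836 to 840 for HFD-Pio. An exact permutation test (two-sided, unadjusted) of 5 against 5 mice cannot go below 0.00794, and 36 of 77 named genes reached this value. Of the 77, 41 were genes called on these mice, so that count is not separate support either.

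**Figure D1:**
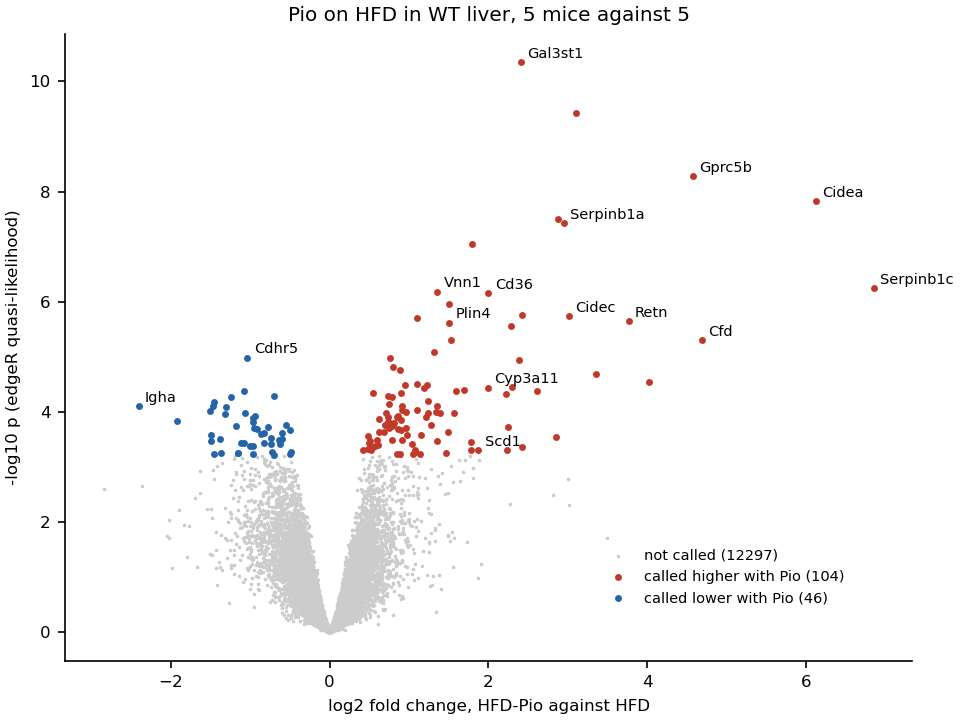
Log2 fold change of HFD-Pio against HFD (horizontal axis) and -log10 of the unadjusted p from edgeR's quasi-likelihood test (vertical axis) for each of 12447 genes in WT liver. The 104 genes called higher are red, the 46 called lower are blue, and the increases reach 6.85 while the decreases reach -2.41.

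Pparg mRNA did not pass the test. Its level was 10.5, 12.2, 11.8, 8.54 and 11.2 CPM in the HFD mice and 10.9, 12.2, 9.42, 11.0 and 7.27 CPM in the HFD-Pio mice. The groups overlapped (log2 fold change -0.089, SE 0.17, adjusted p = 0.799). Ppara, the hepatocyte PPAR, averaged 102 ± 21.2 CPM on HFD and 160.0 ± 32.2 CPM on HFD-Pio (mean ± SD, n = 5 here and below), with every HFD-Pio mouse above every HFD mouse, but it missed the threshold (log2 fold change 0.66, SE 0.22, adjusted p = 0.122). Of 23 PPAR and RXR receptors and coregulators tested, 0 passed in either direction, and their median log2 fold change was -0.15.

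Genes that package fat into droplets were among the increases. Of 23 tested genes of the lipid droplet coat and of lipolysis, 5 rose (Cidea, Cidec, Plin4, Fitm2 and Hsd17b11), 0 fell and 18 did not pass by edgeR, with a list median of 0.37. Cidec (chromosome 6, 113424634 to 113435760, GRCm38), which fuses small droplets into large ones, read 7.37, 17.9, 7.47, 15.3 and 8.21 CPM in HFD mice and 110.4, 121, 50.8, 93.6 and 79.1 CPM in HFD-Pio mice. The lowest HFD-Pio liver was above the highest HFD liver (log2 fold change 3.02, SE 0.46, adjusted p = 0.00172), an 8.10-fold difference of the group means. Cidea, a related droplet protein typical of brown fat, was close to absent on HFD at 0.939 ± 0.403 CPM and reached 65.1 ± 54.7 CPM on HFD-Pio, where the mice ranged from 11.1 to 149 CPM (log2 fold change 6.12, SE 0.68, adjusted p = 4.57e-05). Plin4, a droplet coat protein, read 25.5, 60.1, 29.2, 45.2 and 35.7 CPM on HFD and 117, 159, 73.8, 117 and 86.6 CPM on HFD-Pio (log2 fold change 1.5, SE 0.24, adjusted p = 0.00185). Its exons overlap those of Hdgfl2, so reads there may have been left out. Hsd17b13, a droplet enzyme of hepatocytes, missed the threshold by edgeR (-0.46, adjusted p = 0.0674) but was called lower by DESeq2 (-0.48, adjusted p = 0.00536), by limma (-0.41, adjusted p = 0.0247) and after the GC correction (-0.55, adjusted p = 0.0444). Fitm2, which helps triglyceride bud from the endoplasmic reticulum, rose from 48.2 ± 5.35 to 89.0 ± 14.1 CPM with no overlap between groups (log2 fold change 0.89, SE 0.16, adjusted p = 0.00847). Plin2, the main droplet coat protein of hepatocytes, averaged 483 ± 137 CPM on HFD and 756 ± 208 CPM on HFD-Pio and did not pass (log2 fold change 0.65, SE 0.21, adjusted p = 0.118).

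All 22 tested members of the uptake and binding list had a positive log2 fold change, with a median of 0.48, but only Cd36, Vldlr and Acsl5 passed the test. Cd36 (chromosome 5, 17781690 to 17888801, GRCm38), a fatty acid translocase of the cell surface, read 22.1, 26.7, 31.7, 47.4 and 41.7 CPM in HFD mice and 155, 179.9, 90.6, 149 and 104 CPM in HFD-Pio mice. The groups were well apart (log2 fold change 2.00, SE 0.29, adjusted p = 0.00086). Vldlr, the receptor for very-low-density lipoprotein, rose from 5.68 ± 2.26 to 17.1 ± 5.09 CPM (log2 fold change 1.59, SE 0.31, adjusted p = 0.0139). Acsl5, which joins fatty acids to coenzyme A, rose from 195 ± 33.9 to 318 ± 54.8 CPM (log2 fold change 0.70, SE 0.15, adjusted p = 0.0265). Fabp4, the fatty acid binding protein of adipocytes and macrophages, read 7.94, 35.6, 9.10, 3.07 and 6.53 CPM on HFD and 22.0, 41.9, 9.36, 22.1 and 16.8 CPM on HFD-Pio, and the groups overlapped, with HFD mouse 827 high (log2 fold change 0.86, SE 0.54, adjusted p = 0.37). Lpl, lipoprotein lipase, averaged 14.6 ± 11.2 CPM on HFD and 36.6 ± 23.1 CPM on HFD-Pio and did not pass (log2 fold change 1.33, SE 0.54, adjusted p = 0.18).

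In triglyceride synthesis, 1 of 17 tested genes rose, 0 fell and the median was 0.17. That gene was Mogat1, which adds a fatty acid to monoacylglycerol, with 0.618, 0.8, 0.585, 2.16 and 0.867 CPM on HFD and 7.27, 6.12, 2.89, 5.22 and 2.12 CPM on HFD-Pio. Its groups touched, since HFD mouse 829 at the top of its group exceeded HFD-Pio mouse 840 by a small margin (log2 fold change 2.22, SE 0.44, adjusted p = 0.0148). Cd36, Mogat1, Cidec, Plin4 and Cfd are 5 of the 7 genes that the study followed as PPARγ targets known from earlier reports. The study showed them in these same mice, so a match with its result is not independent evidence. The other two, Fabp4 and Cav1, did not pass here, and Cav1, the coat protein of caveolae, gave a log2 fold change of 0.51 (SE 0.38, adjusted p = 0.455). With Pio on the control diet, 7 of the 7 rose.

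**Figure D2:**
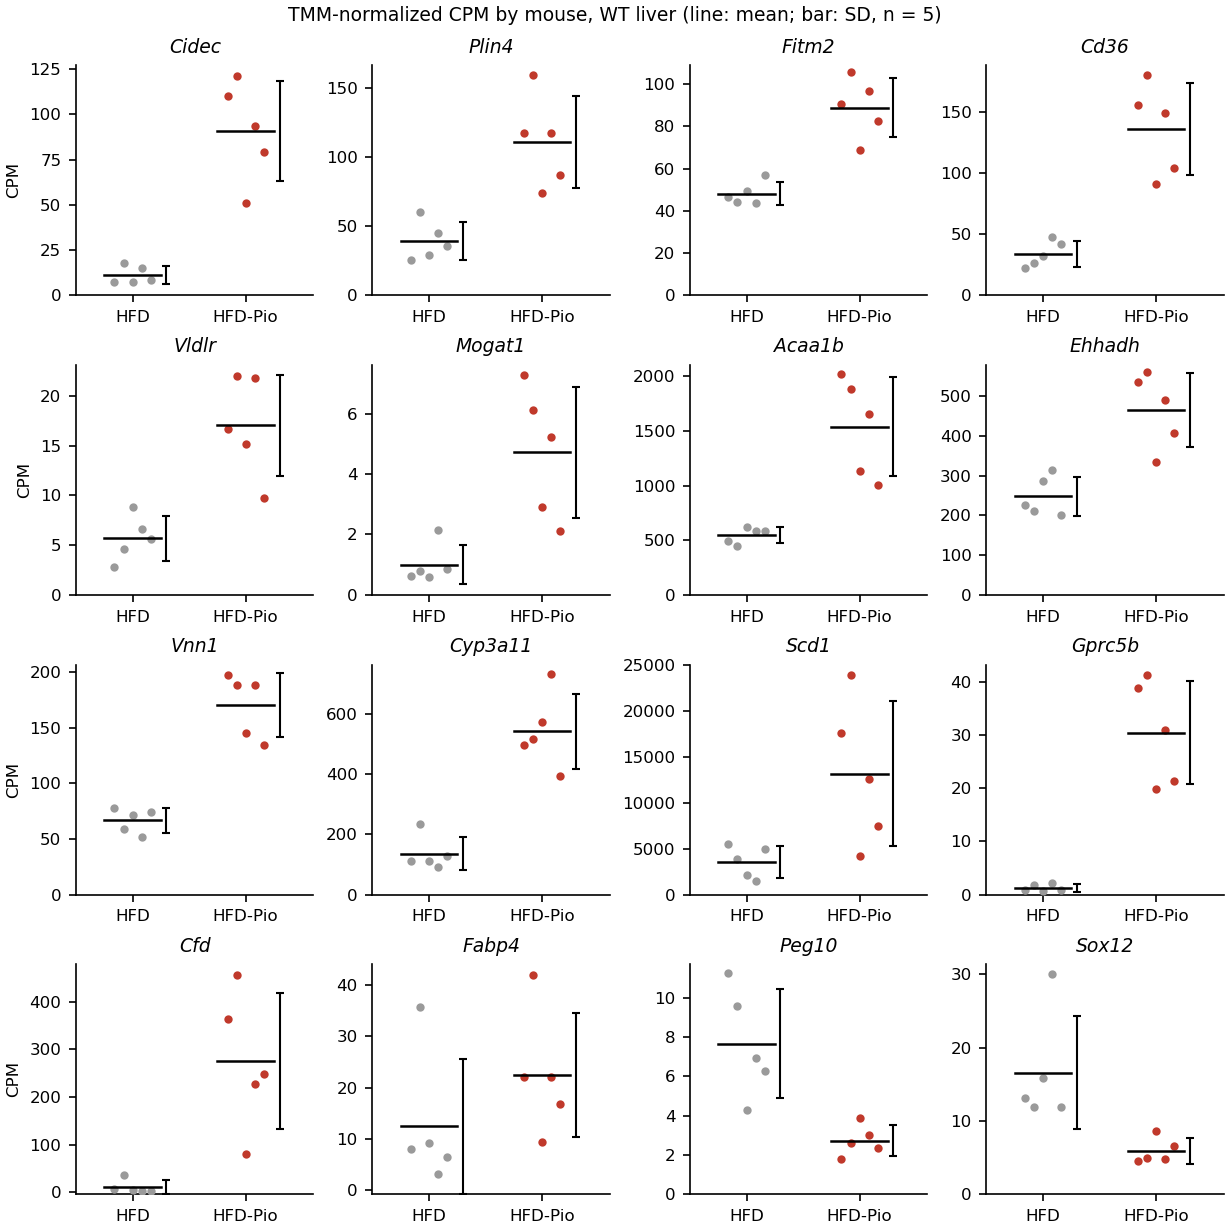
TMM-normalised CPM (vertical axes, linear and differing between panels) of 16 genes in the 5 HFD (grey) and 5 HFD-Pio (red) WT mice, each point a mouse, with the mean as a line and the SD as a bar. Cidec, Plin4, Fitm2, Cd36, Vldlr, Acaa1b, Ehhadh, Vnn1, Cyp3a11, Gprc5b and Cfd show no overlap between groups, Fabp4 overlaps, and Peg10 and Sox12 are lower with Pio.

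The 300 bases around the start of 3 of the higher genes are printed next, because Cd36, Mogat1 and Acot4 (a peroxisomal thioesterase described below) were among those whose start region held a near match to the direct repeat that PPAR and RXR are known to bind. The sequences are from RefSeq on GRCm38.p6, 250 bases before to 50 after the start site, 5′ to 3′ along the gene. Capitals mark the window within 2 letters of AGGTCANAGGTCA, searched on both strands. Any full match would also contain the shorter hexamer AGGTCA.
Cd36, chr5:17835847-17836146, minus strand: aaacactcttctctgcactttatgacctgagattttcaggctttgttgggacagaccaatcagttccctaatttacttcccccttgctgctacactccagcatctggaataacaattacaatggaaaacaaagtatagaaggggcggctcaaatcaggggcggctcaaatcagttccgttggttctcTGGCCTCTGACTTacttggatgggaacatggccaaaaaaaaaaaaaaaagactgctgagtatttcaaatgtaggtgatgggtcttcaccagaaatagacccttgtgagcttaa
Mogat1, chr1:78510810-78511109, plus strand: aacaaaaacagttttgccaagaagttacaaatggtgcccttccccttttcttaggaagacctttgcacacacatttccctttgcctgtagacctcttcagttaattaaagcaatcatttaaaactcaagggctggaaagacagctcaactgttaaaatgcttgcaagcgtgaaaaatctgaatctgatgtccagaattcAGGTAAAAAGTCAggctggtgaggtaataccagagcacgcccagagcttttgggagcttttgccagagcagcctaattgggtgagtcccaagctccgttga
Acot4, chr12:84038129-84038428, plus strand: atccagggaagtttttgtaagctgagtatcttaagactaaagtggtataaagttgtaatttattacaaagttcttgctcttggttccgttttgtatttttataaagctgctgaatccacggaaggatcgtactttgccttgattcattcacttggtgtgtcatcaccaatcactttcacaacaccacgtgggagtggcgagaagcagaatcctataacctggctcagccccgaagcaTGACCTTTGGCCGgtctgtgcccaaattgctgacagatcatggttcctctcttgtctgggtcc
A match within 2 of the 12 fixed letters was present in 7 of the 76 higher genes found in the table (9.21%), in 0 of 39 lower genes, in 3.92% of the tested genes and in 4.4% of all 27025 gene starts. An exact match was present in 13 of the 27025 starts and in 0 of the called genes. These counts describe letters in a short window and were not tested.

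Of 24 tested genes of new fat synthesis, 3 rose (Scd1, Elovl5 and Acacb), 0 fell and the median was 0.32. Scd1, which puts the double bond into oleic acid, read 5517, 3890.1, 2177, 1455 and 4905 CPM on HFD and 17555, 23911, 4174, 12569 and 7511 CPM on HFD-Pio (log2 fold change 1.87, SE 0.46, adjusted p = 0.046). HFD-Pio mouse 838 lay within the HFD range. For reference, Scd1 stood at 20596 ± 7589 CPM on the control diet and 62644 ± 35289 CPM on the control diet with Pio. Acacb, the acetyl-CoA carboxylase at the mitochondrial surface, rose from 65.9 ± 19.7 to 182 ± 87.7 CPM (log2 fold change 1.46, SE 0.36, adjusted p = 0.0491), and its control-diet level was 484 ± 253 CPM. Elovl5, which lengthens polyunsaturated fatty acids, rose from 356 ± 142 to 749 ± 259 CPM (log2 fold change 1.07, SE 0.26, adjusted p = 0.046). Thrsp and Me1, which accompany lipogenesis, gave 1.28 (adjusted p = 0.161) and 1.23 (adjusted p = 0.112) on the log2 scale. Without HFD mouse 829, 0 members of this list passed.

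Of 51 tested genes of peroxisomal oxidation and biogenesis, 5 rose, with Ehhadh, Acaa1b, Acot4 and Acot6 among them, 0 fell, 46 did not pass and the median was 0.25. Pxmp4, a peroxisomal membrane protein, was called lower by DESeq2 (-0.57, adjusted p = 0.0265) and by limma (-0.53, adjusted p = 0.0131). Ehhadh, the bifunctional enzyme that hydrates and oxidises the chain, rose from 248 ± 50.04 to 466 ± 93.4 CPM (log2 fold change 0.91, SE 0.19, adjusted p = 0.0212). Acaa1b (chromosome 9, 119148023 to 119157093, GRCm38), a thiolase with a near-identical neighbour Acaa1a, read 493, 445, 624, 583 and 581 CPM on HFD and 2027, 1885, 1134, 1653 and 1005 CPM on HFD-Pio. All 5 HFD-Pio livers were above all 5 HFD livers (log2 fold change 1.5, SE 0.22, adjusted p = 0.00127), while Acaa1a gave 0.64 (adjusted p = 0.0832). Acot4 and Acot6, thioesterases of 1 gene cluster, rose by 1.24 (SE 0.25, adjusted p = 0.0173) and 1.49 (SE 0.34, adjusted p = 0.03).

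Omega oxidation and PPARα-type genes included 2 increases among 17 tested. Vnn1, a pantetheinase of the liver, read 77.4, 58.8, 71.6, 51.8 and 74.4 CPM on HFD and 198, 188, 146, 188 and 134 CPM on HFD-Pio with a wide gap between groups (log2 fold change 1.36, SE 0.19, adjusted p = 0.00086). Aldh3a2, a fatty aldehyde dehydrogenase, rose from 524 ± 79.4 to 916 ± 187 CPM (log2 fold change 0.80, SE 0.18, adjusted p = 0.0262). Cyp4a14, an omega hydroxylase that responds strongly to PPARα, averaged 1251 ± 533 CPM on HFD and 1776 ± 218 CPM on HFD-Pio and did not pass (log2 fold change 0.5, SE 0.30, adjusted p = 0.343). Fgf21, a hormone that PPARα induces in fasting, averaged 15.0 ± 8.37 CPM on HFD and 4.82 ± 0.909 CPM on HFD-Pio and did not pass by edgeR (log2 fold change -1.63, SE 0.44, adjusted p = 0.0642). Fgf21 was called lower by DESeq2 (-1.65, adjusted p = 0.007), by limma (-1.44, adjusted p = 0.0229) and by edgeR without HFD mouse 829 (-1.85, adjusted p = 0.0492).

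Of 39 tested genes of mitochondrial fatty acid oxidation and ketogenesis, 1 rose, 0 fell and the median was 0.21, with every HFD-Pio mouse above every HFD mouse for 13 of them. The gene that passed, Hadhb, a subunit of the trifunctional protein, rose from 9.83 ± 1.03 to 16.0 ± 1.18 CPM (log2 fold change 0.71, SE 0.15, adjusted p = 0.0213). By limma with sample weights 13 members of this list rose, and by DESeq2 4 rose. Slc25a10, the dicarboxylate carrier, was the 1 gene of 30 citric acid cycle and pyruvate genes that passed, rising from 272 ± 66.4 to 467 ± 97.5 CPM (log2 fold change 0.78, SE 0.18, adjusted p = 0.0363). None of 37 complex I genes, 42 genes of complexes II to V, 73 mitochondrial ribosome genes and 7 mitochondrially encoded mRNAs passed, with medians of 0.045, 0.17, 0.06 and -0.085. Among the most abundant, Atp5b of ATP synthase averaged 1123 ± 144 CPM on HFD and 1155 ± 62.7 CPM on HFD-Pio, a log2 fold change of 0.041 (adjusted p = 0.888). Atp5a1 of the same enzyme gave 0.26 (adjusted p = 0.321). Of the 42 genes of complexes II to V, 32 had a positive log2 fold change. At an unadjusted p under 0.05, 5 of the 42 were higher and 1 lower, against 1166 higher and 1363 lower of all 12447 tested genes. The study's gene set analysis listed oxidative phosphorylation among sets enriched in genes induced by Pio on HFD. It used its own threshold, limma with sample weights and a Hallmark gene set that differs from the lists here, so the 2 results are not like for like. Here limma with sample weights called 2 complex I genes and 1 gene of complexes II to V higher, and DESeq2 called 1 and 0.

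Among drug-metabolising enzymes Cyp3a11 stood out. This cytochrome P450, which clears many drugs and steroids, read 113, 233, 111, 93.0 and 129.6 CPM on HFD and 499, 516, 574, 732 and 393 CPM on HFD-Pio. No value was shared between the groups (log2 fold change 2.00, SE 0.38, adjusted p = 0.0139). Control-diet mice stood at 481 ± 399 CPM without Pio and 595 ± 161 CPM with it. It was the 1 gene called among 34 tested P450 genes of families 1 to 3, whose median was -0.02. Cyp2a4 averaged 0.73 ± 0.437 CPM on HFD and 8.11 ± 6.32 CPM on HFD-Pio and did not pass (log2 fold change 3.49, SE 1.38, adjusted p = 0.173). Cyp2c67 was called lower by DESeq2 (-0.74, adjusted p = 0.0307) and limma (-0.73, adjusted p = 0.0152), and Cyp2c44 by limma (-0.47, adjusted p = 0.0479). Of 33 conjugation and NRF2 target genes 0 passed, and their median was 0.22.

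Amino acid metabolism contributed 2 increases of 41 genes tested. Oat, ornithine aminotransferase, rose from 291 ± 81.7 to 676 ± 183 CPM (log2 fold change 1.21, SE 0.26, adjusted p = 0.0226). Bckdhb, a subunit of the branched-chain keto acid dehydrogenase, rose from 45.9 ± 4.35 to 66.9 ± 4.77 CPM (log2 fold change 0.54, SE 0.11, adjusted p = 0.0145). Outside that list, Aass, which starts lysine breakdown, gave 0.60 (SE 0.14, adjusted p = 0.0364).

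Several of the largest increases were in genes best known from adipose tissue. Cfd, the serum protease adipsin, read 6.05, 36.4, 4.87, 2.93 and 3.47 CPM on HFD and 364, 456, 81.2, 228 and 247 CPM on HFD-Pio. The highest HFD mouse stayed below the lowest HFD-Pio mouse (log2 fold change 4.68, SE 0.77, adjusted p = 0.00322). Retn, the adipocyte hormone resistin, had 7 counts over the 5 HFD mice and 177 over the 5 HFD-Pio mice (log2 fold change 3.77, SE 0.59, adjusted p = 0.00185). HFD-Pio mice 836 and 837 had 70 counts each. Mouse 838 had 3 (0.185 CPM), close to HFD mouse 827 with 3 (0.171 CPM). Cfd, Retn and Cidea were the 3 called members among 9 tested of 14 adipocyte markers. Adipoq, Lep and Plin1, which define an adipocyte, were near 0. Adipoq had 3 counts over the 5 HFD mice and 10 over the 5 HFD-Pio mice, Lep 3 and 1, and Plin1 1 and 1. Among the other 6 tested markers, Fabp4 gave 0.86 on the log2 scale, with overlapping groups as described above, Lipe, hormone-sensitive lipase, gave 0.37, and Adrb3, Pnpla2, Car3 and Nnat lay between -0.24 and 0.23, none passing. The summed adipocyte markers spanned 3084 to 5086 CPM on HFD and 4251 to 5891 CPM on HFD-Pio. Most of each sum was Car3, which averaged 3805 CPM on HFD and 4465 CPM on HFD-Pio and was not called, so the sums say little about the other markers.

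The rest of the largest increases came from genes with varied roles. Gal3st1, a sulfotransferase that makes sulfatide, had the smallest p of all, with 1.10, 1.48, 1.30, 1.199 and 1.85 CPM on HFD and 8.43, 9.10, 6.65, 7.30 and 5.11 CPM on HFD-Pio (log2 fold change 2.41, SE 0.2, adjusted p = 5.57e-07). Gprc5b (chromosome 7, 118972047 to 118995211, GRCm38), an orphan receptor of the cell membrane, read 0.838, 1.77, 0.65, 2.25 and 0.809 CPM on HFD and 38.8, 41.3, 20.0, 30.9 and 21.3 CPM on HFD-Pio (log2 fold change 4.57, SE 0.49, adjusted p = 2.18e-05). Anxa2, a calcium-dependent membrane binding protein, rose from 9.37 ± 3.95 to 49.9 ± 21.8 CPM (log2 fold change 2.42, SE 0.58, adjusted p = 0.0431). Gnai1, an inhibitory G protein subunit, Osbpl3, an oxysterol binding protein, and Kbtbd11 rose by 2.30, 2.61 and 2.88 on the log2 scale. Serpinb1a, an inhibitor of neutrophil proteases, rose from 1.85 ± 1.08 to 14.1 ± 3.62 CPM (log2 fold change 2.95, SE 0.35, adjusted p = 7.68e-05). Its paralog Serpinb1c had 1 count over the 5 HFD mice and 296 over the 5 HFD-Pio mice. Reads of such close paralogs may be split or lost in counting, so their separate sizes are uncertain.

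Further called genes outside the pathway lists were chosen after their values were seen. Clstn3, a calsyntenin of adipocyte droplets and of synapses, rose from 33.7 ± 13.9 to 97.4 ± 27.3 CPM (log2 fold change 1.53, SE 0.25, adjusted p = 0.00322). Pltp, which transfers phospholipid between lipoproteins, rose from 27.4 ± 5.43 to 60.5 ± 22.7 CPM, with overlap between groups (log2 fold change 1.14, SE 0.26, adjusted p = 0.0322). Acer2, a ceramidase, Ddhd2, a lipase of triglyceride and phospholipid, and Agmo, which cleaves ether lipids, rose by 0.78, 0.75 and 0.5 on the log2 scale. Ttpa, the hepatic vitamin E transfer protein, rose from 169 ± 41.2 to 315 ± 39.9 CPM (log2 fold change 0.90, SE 0.19, adjusted p = 0.0241). Hlcs, which attaches biotin to carboxylases such as Acacb, rose from 9.02 ± 1.02 to 15.7 ± 2.46 CPM (log2 fold change 0.80, SE 0.14, adjusted p = 0.00777). Rdh16 and Rdh9, neighbouring retinol dehydrogenases that counting may split, rose by 1.10 and 1.03. Nt5e, the ectonucleotidase that makes adenosine, read 5.82, 7.54, 8.71, 5.66 and 6.71 CPM on HFD and 20.0, 21.9, 13.2, 18.4 and 12.1 CPM on HFD-Pio (log2 fold change 1.32, SE 0.23, adjusted p = 0.00515). Its groups did not overlap. Upp1, uridine phosphorylase, and Entpd5, another nucleotidase, rose by 0.96 and 0.76. Zfp423, a transcription factor of fat cell precursors, and Pde3b, a phosphodiesterase that insulin activates, rose by 1.34 and 0.62.

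The 46 decreases were smaller and more scattered, and no pathway list held one. Igha, the constant region of immunoglobulin A, had the largest fall of the called genes, from 2.43, 8.11, 4.55, 1.58 and 1.68 CPM on HFD to 0.337, 0.274, 1.35, 0.677 and 1.04 CPM on HFD-Pio (log2 fold change -2.41, SE 0.49, adjusted p = 0.019). The summed lymphocyte markers spanned 18.2 to 74.6 CPM on HFD and 12.7 to 19.9 CPM on HFD-Pio, and their part in this change was not tested. The largest part of the sum was Igkc, an immunoglobulin light chain, at 27.9 CPM on HFD and 10.0 CPM on HFD-Pio. The means of Cd3e, Cd8a and Ms4a1 were higher on HFD-Pio and those of the other members lower. Of the 10 markers 3 were tested and 0 were called. Peg10, a retrotransposon-derived imprinted gene, read 11.3, 9.59, 4.29, 6.96 and 6.30 CPM on HFD and 1.81, 2.60, 3.88, 3.00 and 2.37 CPM on HFD-Pio, with no overlap (log2 fold change -1.51, SE 0.32, adjusted p = 0.0213). Sox12, a transcription factor, fell from 16.6 ± 7.72 to 5.92 ± 1.75 CPM (log2 fold change -1.5, SE 0.35, adjusted p = 0.0369), and HFD mouse 829 was the highest of its group, at 30.1 CPM. E2f8 and E2f2, transcription factors of the cell cycle, fell by 1.38 and 1.12 on the log2 scale, though the 16 tested cell cycle genes held 0 calls. Avpr1a, a vasopressin receptor, Inhba and Inhbc, subunits of activins, and Serpine2, a protease inhibitor, fell by 1.47, 1.17, 0.83 and 1.16. Cdhr5, a cadherin-related protein of the brush border, fell from 189 ± 51.7 to 92.3 ± 13.5 CPM (log2 fold change -1.04, SE 0.18, adjusted p = 0.00583). Summed cholangiocyte markers spanned 84.3 to 163 CPM on HFD and 64.5 to 85.7 CPM on HFD-Pio, and their part in the decreases was not tested. Irf7, an interferon regulatory factor, and H2-Q7, an MHC class I gene, fell by 0.78 and 0.70, and the close paralogs Apol9a and Apol9b, which counting may split, fell by 1.07 and 1.08. Among regulators outside the lists, Atf5, a factor of mitochondrial stress responses, fell from 1340.2 ± 361 to 684 ± 84.1 CPM (log2 fold change -0.97, SE 0.21, adjusted p = 0.0257), and Gps2, a corepressor subunit, Srf, serum response factor, and Arrb2, an arrestin, fell by 1.00, 0.72 and 0.73. Atf5 overlaps exons of Nup62 and Il4i1 on the other strand.

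The lower genes had a median GC content of 52.1%, against 44.8% for the higher genes and 46.1% for all tested genes. After correction of each library for GC content 90 genes were higher and 42 lower, and without HFD mouse 829 with the same correction 58 were higher and 17 lower.

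The other pathway lists held no call in either direction by edgeR. Over all 17 lists without a call, those described above included, 487 genes were tested, of which 43 were higher and 45 lower at an unadjusted p under 0.05, 8 higher and 13 lower passed by DESeq2, and 14 higher and 8 lower passed by limma. Of all 12447 tested genes, 1166 were higher and 1363 lower at that unadjusted p, 260 and 338 passed by DESeq2, and 344 and 294 by limma. For glycolysis, gluconeogenesis and insulin signalling, cholesterol, and bile acids, 27, 19, 31 and 25 genes were tested and the medians were -0.082, 0.23, 0.0088 and 0.021. For the unfolded protein response, acute phase and complement, and inflammation and fibrosis, 34, 34 and 25 genes were tested and the medians were -0.10, -0.23 and 0.044. The acute phase gene Saa1, serum amyloid A, averaged 142 ± 234 CPM on HFD and 52.9 ± 26.7 CPM on HFD-Pio and did not pass (log2 fold change -1.43, SE 0.74, adjusted p = 0.28). For major urinary proteins and growth hormone targets, core clock genes, immediate early genes and cell cycle genes, 25, 20, 16 and 16 were tested and the medians were -0.044, 0.054, -0.19 and -0.057. Pck1, the gluconeogenic carboxykinase, and Mup3, a urinary protein of male liver, gave 0.41 and -0.10 on the log2 scale.

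**Figure D3:**
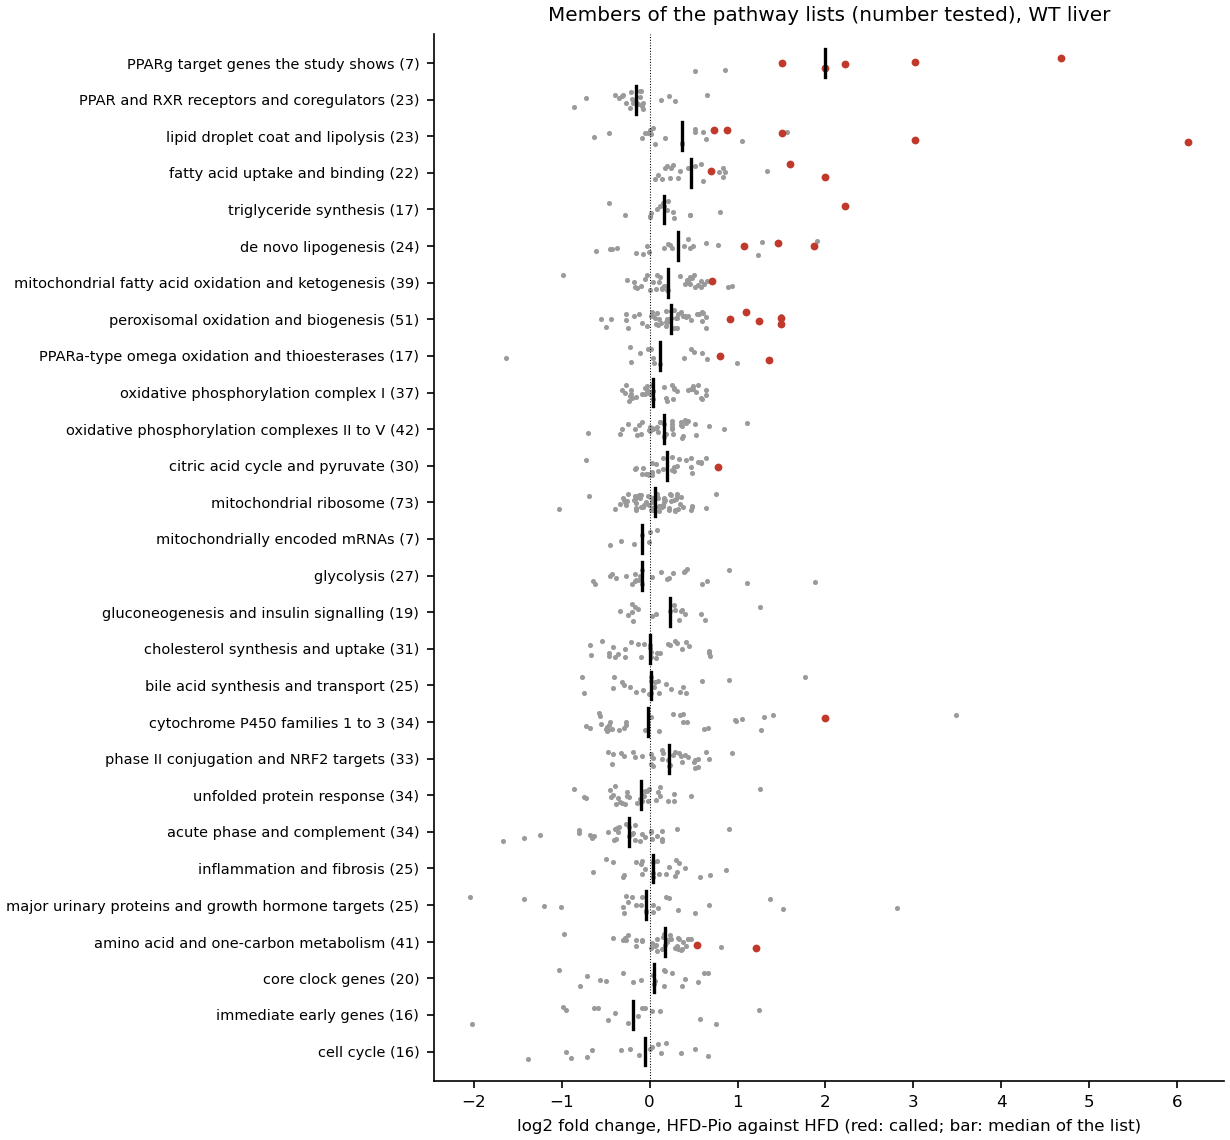
Log2 fold change of HFD-Pio against HFD (horizontal axis) for each tested member of 28 lists (vertical axis, number tested in parentheses), red where called, with the list median as a bar. Every called member of a list lies to the right of 0, led by Cidea at 6.12. The list of 7 genes holds those the study took from earlier reports and showed in these samples.

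Most of the increases were also found with Pio on the control diet, in mice not shared with the HFD comparison. There 506 genes (4.07% of those tested) rose and 428 (3.44%) fell. Of the 104 genes higher on HFD, 69 were also higher on the control diet, which is 66.3% of the first list and 13.6% of the second. The sign was positive for 103 of the 104, with a median log2 fold change of 1.10 on HFD and 0.90 on the control diet. Among the 46 genes lower on HFD, 10 were also lower on the control diet, 21.7% of the first list and 2.34% of the second, and 33 of the 46 had a negative sign there, with medians of -0.97 and -0.38. None of the 150 was called in opposite directions on the 2 diets. Cidec rose from 15.1 ± 16.1 to 88.4 ± 22.4 CPM on the control diet (2.55 on the log2 scale). Cfd and Cidea had control-diet changes of 6.88 and 7.90, and Cyp3a11 had 0.31 (adjusted p = 0.675).

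When the effect of Pio was tested for a difference between diets, 1 gene of 12447 (0.00803%) passed. It was Cyp7a1, the rate-limiting enzyme of bile acid synthesis, at 10.5 ± 4.41 CPM on the control diet, 51.7 ± 17.1 with Pio, 49.5 ± 18.1 on HFD and 29.2 ± 5.91 on HFD-Pio. Its log2 fold change with Pio was 2.31 on the control diet (adjusted p = 5.27e-05) and -0.76 on HFD (adjusted p = 0.149), a difference of -3.08 (SE 0.40, adjusted p = 0.00223). The number of genes passing this test was 135 by DESeq2 and 840 by limma, so the count depends on the method.

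The HFD itself, against the control diet without Pio, raised 166 genes (1.33%) and lowered 183 (1.47%), in a comparison that shares the HFD mice with that of Pio. Among the 104 genes higher with Pio, 11 were lower on HFD than on control diet and 7 were higher. Among the 46 genes lower with Pio, 0 were lower on HFD and 7 were higher. Acacb shows the first pattern, with an HFD change of -2.88 on the log2 scale (adjusted p = 0.00031) and a Pio change of 1.46. Scd1 had an HFD change of -2.52 (adjusted p = 0.0056) and Elovl5 of -1.41 (adjusted p = 0.00561). Because the HFD mice enter both comparisons, these values are set side by side with no test of their relation.

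In the KO mice few genes were called. Pparg counts, which cover the whole gene and not only the deleted part, averaged 6.29 ± 1.97 CPM in the KO mice on HFD alone and 7.27 ± 1.79 CPM with Pio added. In a fit of all 40 mice over 12942 genes, HFD-Pio against HFD called 2 genes in KO mice (0.0155%). They were Elane and Orm2, both lower and named here after their values were seen. Orm2 averaged 583 ± 1235 CPM on HFD and 11.7 ± 5.44 CPM with Pio, and Elane 4.78 ± 9.90 and 0.0979 ± 0.0446 CPM. Each SD on HFD exceeded its mean, so both calls may rest on few mice. An unadjusted p under 0.05 was seen for 134 genes (23 higher, 111 lower), a smaller share than 0.05 of those tested. Spread was shared by all 8 groups, so genes not called in KO were not shown to be unchanged. Of the 104 genes higher in WT, 54 had a positive log2 fold change in KO, with a median of 0.02, 2 had this sign at an unadjusted p under 0.05 and 0 were called by edgeR. Of the 46 lower genes, 25 had a negative sign in KO, with a median of -0.02, 0 had this sign at an unadjusted p under 0.05 and 0 were called. The difference between genotypes passed for 12 genes (0.0927%), each a gene called higher in WT: Gprc5b, Retn, Cfap54, Fam126a, Cidec, Tmprss7, Serpinb1a, Ermp1, Kbtbd11, Gnai1, Cfd and Bhlhb9. Cidec stood at 2.81 ± 0.724 CPM in KO mice without Pio and 3.20 ± 1.18 CPM with it, and the Pio effect in KO minus that in WT was -2.81 on the log2 scale (adjusted p = 0.0162). Gprc5b stood at 0.663 ± 0.163 CPM in KO mice without Pio and 0.71 ± 0.258 CPM with it, with a difference of -4.46 (adjusted p = 0.000136). Cfd stood at 1.11 ± 1.03 CPM in KO mice without Pio and 0.116 ± 0.109 CPM with it, with a difference of -7.82 (adjusted p = 0.00212). Cyp3a11 had a KO log2 fold change of -0.17 and Scd1 of 1.52 (adjusted p = 1 and 1), and for neither did the difference between genotypes pass. Nor did it pass for Cd36, Plin4, Vnn1 or Cidea, so these are not shown to differ between genotypes. A response of these genes in KO mice was not shown either. Their KO log2 fold changes were 0.27 (SE 0.37), -0.13 (SE 0.29), -0.17 (SE 0.35) and -0.11 (SE 1.81), in that order. The differences, KO minus WT, were -1.71, -1.61, -1.51 and -6.21. Cidea was near 0 in KO mice, at 0.0254 CPM on HFD and 0.0226 CPM with Pio added, so its difference was imprecise (SE 2.72). The count of 12 was 21 without KO Pio mouse 13, 26 by DESeq2 and 354 by limma. WT and KO mice were from different sources, so genotype and origin cannot be told apart.

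**Figure D4:**
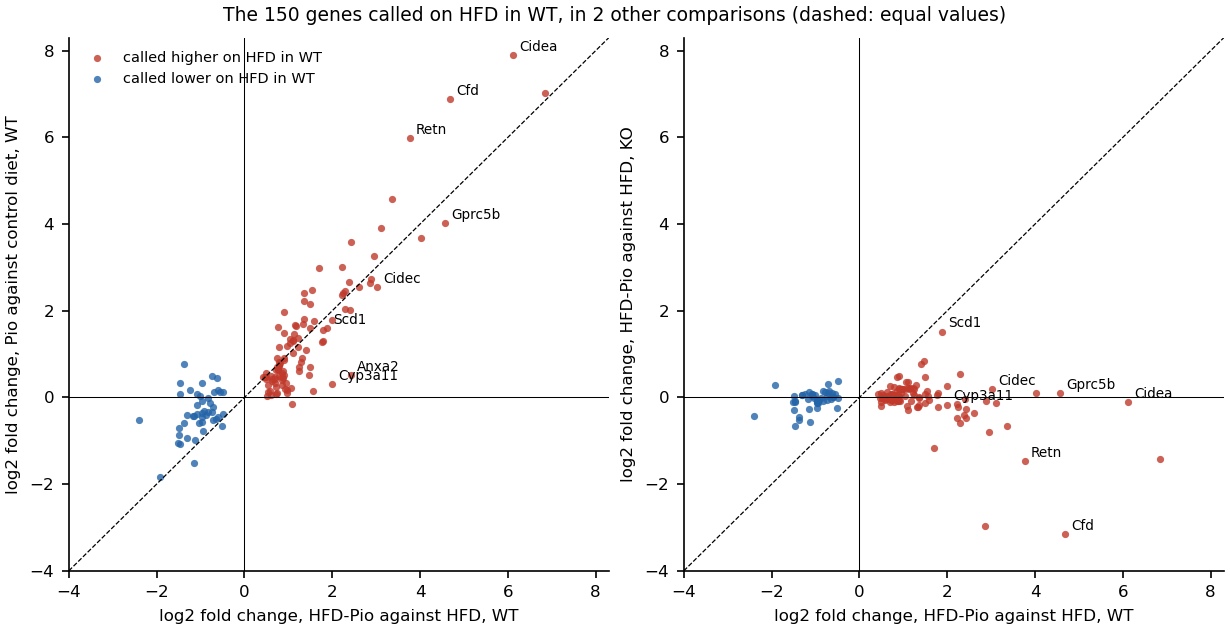
The 150 genes called for Pio on HFD in WT (horizontal axes, log2 fold change) against their log2 fold change with Pio on the control diet in WT (left) and with Pio on HFD in KO mice (right), red where called higher and blue where called lower on HFD. On the left the median of the red genes is 0.90 (1.10 on HFD) and that of the blue genes -0.38 (-0.97 on HFD), and on the right the medians are 0.02 and -0.02, with Cfd at -3.16 and Scd1 at 1.52 the lowest and highest.

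The number of genes called moved with single mice. Without HFD-Pio mouse 837 30 genes passed, without 836 48 and without 839 51. Without HFD mouse 827, 828 or 829 the counts were 66, 75 and 78, and without control mouse 832 the count was 348. The control group enters this comparison only through the shared filter, scaling and spread. The library of mouse 832 had a TMM factor of 1.345. Its mean Spearman correlation with its own group, 0.939, was the lowest of the 20 WT libraries. Mouse 832 was kept in the control-diet comparisons. In every one of the 20 fits 29 of the 150 genes were called, 28 higher and 1 lower. These included Cd36, Cidec, Cidea, Plin4, Fitm2, Acaa1b, Vnn1, Cyp3a11, Cfd, Gprc5b, Gal3st1 and Serpinb1a, and the lower gene was Cdhr5. Scd1, Acacb, Elovl5, Mogat1, Ehhadh and Vldlr were not among them.

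**Figure D5:**
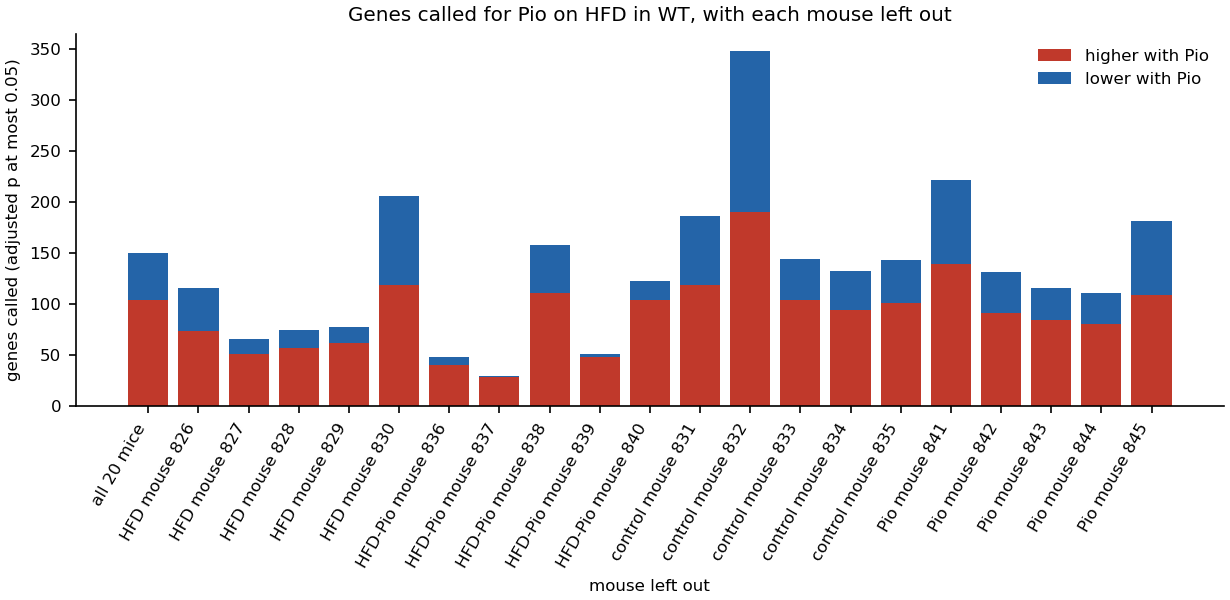
Number of genes called for Pio on HFD (vertical axis) with all 20 WT mice and with each mouse left out (horizontal axis), higher with Pio in red and lower in blue. The count runs from 30 without HFD-Pio mouse 837 to 348 without control mouse 832.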

How the data were processed

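Liver poly-A RNA of 5 mice per group was sequenced. The authors aligned reads with STAR 2.0.4b to GRCm38 and summed unambiguous reads with a unique alignment over each gene with featureCounts 1.4.5 of Subread. The deposited values are raw counts per gene, with no normalisation, in a WT and a KO table, beside a column of gene GC content in percent, also deposited by the authors. The strand setting of the counting is not given in the sources used here.

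Repeated gene lines (574 of 41264 in the WT table) and 355 ribosomal RNA genes were removed. Genes reaching 1 CPM in 5 or more of the 20 WT mice were tested with edgeR 4.0.16 in R 4.3.3 (TMM, robust quasi-likelihood, 4 groups sharing one estimate of spread), and called at a Benjamini-Hochberg adjusted p of at most 0.05. Genotypes were compared in a fit of 40 mice in 8 groups. WT mice alone were used for the WT comparisons, since KO Pio mouse 13 moves the shared spread of a joint fit. DESeq2 1.42.0, limma 3.58.1 with sample weights, other normalisation and filters, a correction of each library for GC content, and each mouse left out were alternatives, and the GC correction was chosen after seeing the data. The main edgeR fit, the GC correction, DESeq2 and limma were run on simulated counts of the 20 WT mice, and the other alternatives were not. Gene lists and their markers, and the mice compared, were chosen with earlier results of these data known. Named genes were Pparg and the 7 genes the study follows, the 12 largest called changes in each direction with a mean of at least 2 CPM, up to 4 called members of each list in each direction or the 2 most abundant where none was called, and up to 5 genes called in each direction for a difference between diets. Other genes were named after their values were seen, and 4 genes that the rule named are not reported here. CPM of KO mice come from the 40-mouse scaling.

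Each sample is a mouse with its own number. Library totals of 15789401 to 49860981 counts limit genes near 1 CPM to few reads per library.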

Additional observations from a re-analysis of the deposited data

Results flagged for a closer look

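In 156 groups of 5 mice, Dixon's test set 19 single values apart, against about 1 in 20 groups by chance, and 8 of the 19 belonged to HFD mouse 829. In that mouse Mogat1 stood at 2.16 CPM, Sox12 at 30.1, Mypop at 18.5, Pcgf2 at 53.0, Prss53 at 11.3, Mrpl12 at 103, mt-Cytb at 6383 and Cxcl1 at 248.7 CPM, the mt-Cytb value being the lowest of its group and the others the highest. HFD mouse 827 was highest in its group for Cfd (36.4 CPM), Fabp4 (35.6 CPM), Cidea (1.66 CPM), Cyp3a11 (233 CPM) and Cdkn1a (123.5 CPM). HFD mouse 828 was highest for Serpinb1a (3.77 CPM) and Atp5b (1370 CPM), HFD mouse 826 lowest for Bckdhb (38.3 CPM) and HFD mouse 830 highest for Ccnd1 (17.6 CPM). HFD-Pio mouse 840 was highest for Prss53 (3.28 CPM) and Serpina1e (9006 CPM).

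The Pio effect on Cyp7a1 differed between diets by -3.08 on the log2 scale, HFD minus control diet (edgeR, adjusted p = 0.00223). The Pio effect on HFD differed between genotypes, as KO minus WT on the log2 scale with edgeR's adjusted p, for 12 genes. The differences were -4.46 for Gprc5b (0.000136), -5.19 for Retn (0.0443), -2.87 for Cfap54 (0.00898), -1.98 for Fam126a (0.000189), -2.81 for Cidec (0.0162) and -5.79 for Tmprss7 (0.0396). They were -3.72 for Serpinb1a (0.0069), -1.36 for Ermp1 (0.0111), -2.94 for Kbtbd11 (0.0069), -2.87 for Gnai1 (0.0111), -7.82 for Cfd (0.00212) and -2.77 for Bhlhb9 (0.0111).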

How the results depend on the processing

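Relative to 150 genes called for Pio on HFD, DESeq2 called 598, limma with sample weights 638, the 10 HFD mice alone 260 (132 higher and 128 lower) and the GC correction without HFD mouse 829 75. The RLE normalisation (159), no filter (135), all 40 mice (140) and the GC correction (132) stayed within 1.5 times. Leaving out single mice gave 30 to 348. For the difference between diets (1 gene), no filter gave 2, DESeq2 135, limma 840, all 40 mice 10, the GC correction 3 and that correction without HFD mouse 829 2. Single mice gave 1 to 115, with 115 without Pio mouse 841, 10 and 5 without control mice 833 and 831, 3 without control mouse 835, and 2 without Pio mouse 845, HFD-Pio mouse 836 or HFD mouse 829. For the difference between genotypes (12 genes), leaving out KO Pio mouse 13 gave 21, DESeq2 26 and limma 354, and leaving out in turn each of the 20 mice on HFD with or without Pio, WT and KO, gave 8 to 14. The exact permutation test was under 0.05 for 47 named genes, and for 43 to 48 with a mouse left out. Of 2156 alternative values of the 77 named genes, 1905 kept their direction and side of the threshold, 214 were no longer called, 3 became called and 34 changed sign. The cause was not tested.

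The changes of sign were all in genes that were not called. Rxra was 0.039 by limma, 0.011 with the GC correction and 0.16 with it and without HFD mouse 829. Cxcl1 was 0.087 by limma and 0.27 with the GC correction and without HFD mouse 829, where Mrpl38 was 0.041. Ndufb9 was 0.0040 by limma. mt-Co1 was -0.10 by limma, -0.046 with the GC correction and -0.16 with it and without HFD mouse 829. mt-Cytb was -0.010 by RLE normalisation and DESeq2, -0.012 with all 40 mice, -0.17 by limma, -0.0053 with the 10 mice, -0.12 with the GC correction and -0.32 with it and without HFD mouse 829. With a mouse left out, the ranges were -0.17 to 0.011 for Pparg, -0.26 to 0.081 for Rxra, -0.16 to 0.13 for Ndufb9, -0.23 to 0.12 for mt-Cytb, -0.062 to 0.17 for mt-Co1, -0.33 to 0.017 for Slc10a1, -0.0035 to 0.17 for Slc27a5, -0.88 to 0.31 for Cxcl1 and -0.10 to 0.28 for Nr1d1.

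No paired analysis was possible because each mouse had its own number and no number recurred in another group. With 5 mice per group and at least 15789401 counts per library, a change that missed the threshold was not shown to be absent, nor shown to be present.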
